A study of Homo sapiens with 9 samples.

Results

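The genes described here are 10 heat shock genes of A549, a human lung adenocarcinoma cell line, measured before and after the introduction of reprogramming factors. They are HSPA1A, HSPA1B, HSPA8, HSPH1, HSP90AA1, DNAJB1, BAG3, HSPB1, HSPD1 and HSPE1. They were chosen by name, with earlier results of these data known. Every non-control probe annotated to a RefSeq transcript of 1 of them was kept. This gave 15 of the 50599 non-control probes of the array and 10 of the 21743 genes named on it. HSPA1A, HSPA1B, HSPA8, DNAJB1, BAG3, HSPD1 and HSPE1 had 1 probe each, HSPH1 had 2, and HSP90AA1 and HSPB1 had 3 each. The list had been put together as one of cytosolic heat shock genes, but HSPD1 and HSPE1 encode the chaperonin and its co-chaperonin of the mitochondrial matrix, so both are described separately.

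RNA of 3 groups of cells was hybridised, with 3 arrays per group. Parental A549 cells, at P98, P98 and P99 (passage numbers), received no vector. The other groups came from A549 cells transduced by retrovirus with OCT3/4, SOX2 and KLF4 (OSK), which form dome-shaped colonies with spindle-shaped cells around them. OSK-A549-SN cells are the spindle-shaped cells that a short trypsin treatment released, and OSK-A549-Colony cells are the colonies that stayed on the dish and were picked. Both were at P106, P107 and P106, and per the study's methods the RNA came from 3 separate transductions. No cells with an empty or EGFP vector are among these arrays, so transduction, the 3 factors, passage number and the way of harvesting cannot be told apart in any comparison with parental A549. In RNA of whole cultures, fewer cells that express a gene and less RNA of it per cell cannot be told apart either.

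Heat shock proteins are chaperones, which bind unfolded proteins and help them to fold, to be held soluble or to be degraded. When unfolded protein accumulates, the transcription factor HSF1 forms trimers, binds heat shock elements in the promoters of these genes, and raises their transcription. HSP70 works in a cycle with J-domain proteins such as DNAJB1, which hand it clients, and with nucleotide exchange factors such as HSPH1 and BAG3, which release them, and HSP90 takes over clients such as kinases and steroid receptors. Many of these genes are also expressed without heat in cancer cells.

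The heat shock element is built from inverted GAA units spaced by a pair of bases, and the promoter sequences are shown because they carry the element that the members are known for. RefSeq promoter windows on GRCh38.p14, from 250 bases before to 50 bases after each start site, were searched on both strands for a pair of units (GAANNTTC or TTCNNGAA) and for 3 alternating units. All 10 members had a window, and 14 windows were found for them. A pair of units stood in 8 of these windows, from 7 members, and in 13.5% of the 35116 windows of all genes. Taken singly, GAANNTTC stood in 6.77% and TTCNNGAA in 7.74% of all windows, and both are contained in the element of 3 units. The 3 alternating units stood in 3 member windows and in 0.49% of all windows. The 250 bases upstream of the start site are given for 5 members, 5′ to 3′ in the direction of transcription, with every match in capitals. HSPA1A lies at chr6:31815293-31815542 on the plus strand, HSPA8 at chr11:123062137-123062386 on the minus strand, and HSP90AA1 (its first window) at chr14:102087045-102087294 on the minus strand. DNAJB1 (its second window) lies at chr19:14518398-14518647 on the minus strand and HSPB1 at chr7:76302423-76302672 on the plus strand.
HSPA1A: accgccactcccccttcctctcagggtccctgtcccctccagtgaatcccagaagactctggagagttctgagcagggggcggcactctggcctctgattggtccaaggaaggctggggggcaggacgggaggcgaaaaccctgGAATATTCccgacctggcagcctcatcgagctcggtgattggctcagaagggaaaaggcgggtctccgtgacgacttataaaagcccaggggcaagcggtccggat
HSPA8: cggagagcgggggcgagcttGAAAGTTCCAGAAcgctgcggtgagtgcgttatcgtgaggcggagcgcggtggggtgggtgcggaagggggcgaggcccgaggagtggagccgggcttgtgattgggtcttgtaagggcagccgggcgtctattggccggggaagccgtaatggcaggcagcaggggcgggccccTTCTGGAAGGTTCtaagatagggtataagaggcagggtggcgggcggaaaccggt
HSP90AA1: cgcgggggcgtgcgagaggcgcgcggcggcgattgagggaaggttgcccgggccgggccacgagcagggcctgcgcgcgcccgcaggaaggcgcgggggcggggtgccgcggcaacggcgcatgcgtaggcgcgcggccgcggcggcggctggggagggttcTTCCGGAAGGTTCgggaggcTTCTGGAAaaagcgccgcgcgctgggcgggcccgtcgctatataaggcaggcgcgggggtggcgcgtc
DNAJB1: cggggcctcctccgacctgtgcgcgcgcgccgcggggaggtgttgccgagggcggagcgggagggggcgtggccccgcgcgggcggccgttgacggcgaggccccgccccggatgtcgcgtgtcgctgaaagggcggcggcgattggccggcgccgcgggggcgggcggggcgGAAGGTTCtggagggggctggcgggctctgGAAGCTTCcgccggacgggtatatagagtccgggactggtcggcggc
HSPB1: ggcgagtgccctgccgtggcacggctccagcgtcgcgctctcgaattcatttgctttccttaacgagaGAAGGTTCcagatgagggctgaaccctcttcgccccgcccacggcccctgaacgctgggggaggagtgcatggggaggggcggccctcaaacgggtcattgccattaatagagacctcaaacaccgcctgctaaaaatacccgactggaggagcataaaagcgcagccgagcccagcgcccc

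In HSPA1A the pair of units lay at -106 to -99 from the start site, upstream of a TATAAA box at -30. HSPA8 held 3 units at -230 to -218 and again at -55 to -43. HSP90AA1 held 3 units at -88 to -76 and a pair at -68 to -61, DNAJB1 held pairs at -77 to -70 and -47 to -40, and HSPB1 held 1 pair at -182 to -175. The upstream stretch of HSPA1B, at chr6:31827488-31827737, had the same base as that of HSPA1A at 235 of 249 aligned positions (94.4%) and differed at 14, and its pair of units lay at -105 to -98. HSPD1 had 2 windows, and the first held 2 overlapping elements of 3 units between -245 and -228. HSPE1 starts 105 bases from the second HSPD1 start site on the opposite strand, so that both genes are read away from 1 shared stretch. The windows of HSPH1, HSPE1 and BAG3 held no pair of units in these letters. TATAAA stood in 2 member windows and 11.5% of all windows, and CCAAT in 7 member windows and 34.6% of all windows.

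**Figure D1:**
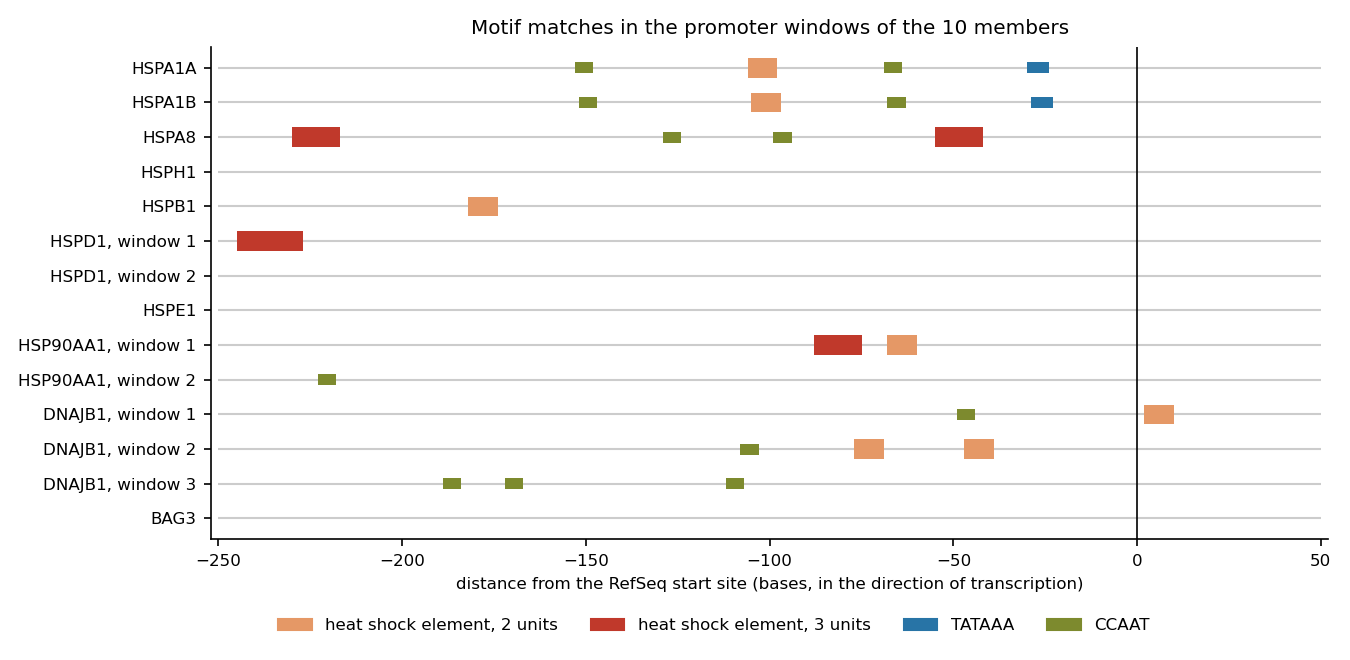
Positions of motif matches in the 14 RefSeq promoter windows of the 10 members, with the distance from the start site in bases on the x axis and 1 window per row. Orange and red blocks are heat shock elements of 2 and 3 units, blue blocks are TATAAA and green blocks are CCAAT; 8 of 14 windows hold an element, and those of HSPH1, HSPE1 and BAG3 hold none.

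Values are log2 intensities relative to the 75th percentile of their array, so that 0 is the intensity of that percentile (217.5 to 270.6 across the arrays), and each gene is represented by its brightest probe. All 15 member probes were well above background on all 9 arrays, and no spot was saturated. Between 25809 and 29317 probes were detected per array. A probe was called when its adjusted p in limma, over all probes tested in the comparison, was under 0.05 and its fold change over 2. All 7 epithelial markers examined were well above background on all 9 arrays, whereas none of the 6 fibroblast markers was on all 9 and 5 of them were on none. Of 5 leukocyte markers, PTPRC, CD14 and CD68 were well above background on all 9 arrays, and of 5 endothelial markers CDH5 and VWF were, and PECAM1 and TEK on none. OSK-A549-SN replicate 3 was alone on the second slide, which held 1 array, and the other 8 arrays shared the first.

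Of the 10 members, 9 were higher in OSK-A549-Colony cells than in parental A549 cells, by 0.36 to 1.08 on the log2 scale, and in each of the 9 the 3 Colony arrays lay above the 3 parental arrays. The same count without overlap, 9 of 10, was found for OSK-A549-SN cells against the same parental arrays. Over all named genes, 25.7% were higher in this way in Colony cells and 19.8% in SN cells. The median difference of the members was 0.69 in Colony cells, beside 0.03 over all 16422 genes tested, and 0.64 in SN cells, beside 0.09 over 16777 genes. The members were chosen with earlier results of these data known, and the probes of HSPA1A and HSPA1B may share signal. These counts and medians are therefore descriptions only. HSPB1 was the exception in both comparisons. Few of the differences passed the test over the whole array: HSPA8 alone was called in Colony cells, where 3.70% of all probes and 2.08% of named genes (in the upward direction) were called. HSPA8, HSPA1A, HSPA1B and BAG3 passed the adjusted p without regard to the fold, as did 5.29% of named genes in the upward direction. The HSPA8 call was lost when any 1 of the Colony arrays or parental replicate 2 was left out, with adjusted p-values of 0.0546 without Colony replicate 1, 0.101 without Colony replicate 2, 0.0792 without Colony replicate 3 and 0.0670 without parental replicate 2. No member passed the adjusted p in any of these 4 fits. With no detection filter HSPA1A (adjusted p = 0.0573), HSPA1B (0.0636) and BAG3 (0.0842) did not pass, and with the replicate number as a block none of the 4 did (0.118 for HSPA8).

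**Figure D2:**
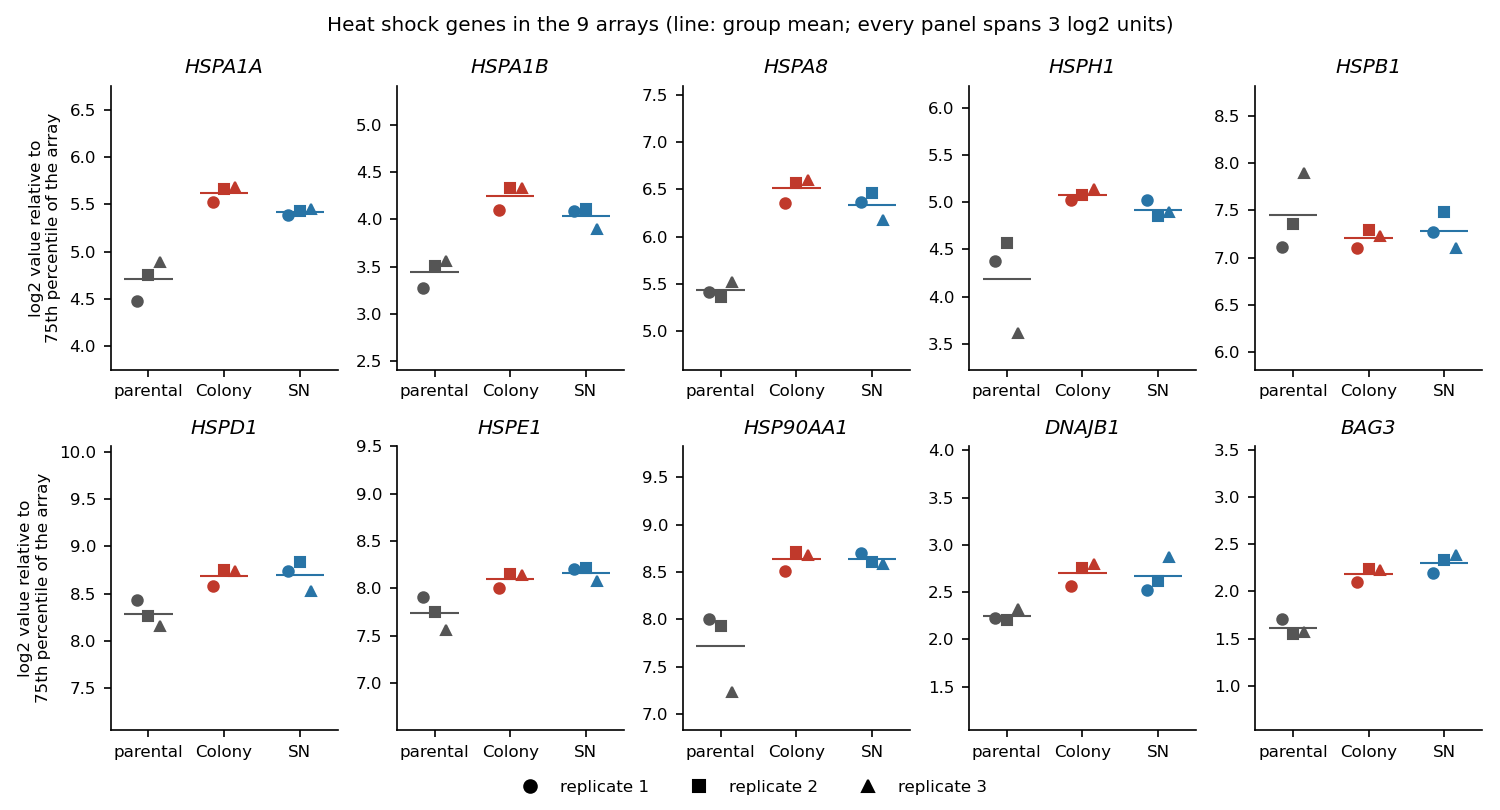
Log2 values of the 10 members relative to the 75th percentile of each array, with the 3 groups on the x axis, 1 symbol per array and a line at the group mean. The Colony and SN arrays lie above all parental arrays in every panel but that of HSPB1, and parental replicate 3 (triangle) lies apart in HSPH1, HSPB1 and HSP90AA1.

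HSPA8 had the lowest adjusted p of the members in each comparison with parental cells. HSPA8, the constitutive cytosolic HSP70 that also uncoats clathrin vesicles, read 5.41, 5.36 and 5.52 in parental cells, 6.36, 6.57 and 6.60 in Colony cells and 6.37, 6.46 and 6.18 in SN cells. The 3 parental arrays lay at least 0.65 below every transduced array. HSPA8 rose by 1.08 ± 0.11 (log2, SE, 3 arrays against 3), or 2.11-fold, in Colony cells, with an adjusted p of 0.0181. In SN cells it was 1.87-fold higher (log2 difference 0.90 ± 0.14, adjusted p = 0.0445), which passed the adjusted p but not the fold threshold. HSPA8 was the only member past the adjusted p in SN cells, where 0.888% of named genes passed it upward, and without any 1 of the 6 arrays it was not, with adjusted p-values of 0.0861, 0.165 and 0.0639 without parental replicates 1, 2 and 3 and of 0.184, 0.185 and 0.0646 without SN replicates 1, 2 and 3.

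HSPA1A, a heat-inducible HSP70, read 4.47, 4.76 and 4.89 in parental cells, 5.52, 5.66 and 5.68 in Colony cells and 5.39, 5.43 and 5.45 in SN cells. Its probe is printed 10 times on the array, and the SD between those spots was 0.05 to 0.09 within an array, beside an SD between arrays of 0.21 in parental, 0.088 in Colony and 0.031 in SN cells. The difference from parental cells was 0.92 ± 0.14 in Colony cells (1.89-fold, adjusted p = 0.0282) and 0.71 ± 0.15 in SN cells (adjusted p = 0.0788). HSPA1B, which encodes the same HSP70 protein from a neighbouring gene, read 3.27, 3.51 and 3.56 in parental cells, 4.10, 4.33 and 4.33 in Colony cells and 4.09, 4.11 and 3.90 in SN cells. Its differences were 0.81 ± 0.13 in Colony cells (adjusted p = 0.0308) and 0.58 ± 0.14 in SN cells (adjusted p = 0.0993). The 2 genes are nearly identical copies and the sequences of their probes were not used here, so the 2 probes may share signal and are not independent readings.

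BAG3 and DNAJB1 assist HSP70. BAG3, a nucleotide exchange factor that links HSP70 to small heat shock proteins and to selective autophagy, read 1.71, 1.55 and 1.57 in parental cells, 2.10, 2.24 and 2.23 in Colony cells and 2.20, 2.33 and 2.38 in SN cells. It rose by 0.58 ± 0.10 in Colony cells (1.49-fold, adjusted p = 0.0346), and the difference in SN cells was 0.69 ± 0.13 (adjusted p = 0.0625). BAG3 is thus the member with the lowest adjusted p after HSPA8 in SN cells, at a fold well under 2. DNAJB1, the J-domain partner of stress-induced HSP70, read 2.22, 2.20 and 2.32 in parental cells, 2.57, 2.76 and 2.80 in Colony cells and 2.52, 2.62 and 2.88 in SN cells. The groups did not overlap, but the differences of 0.46 ± 0.11 (adjusted p = 0.0592) and 0.42 ± 0.15 (adjusted p = 0.177) did not pass the adjusted p.

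HSPH1, the cytosolic HSP110 that acts as an exchange factor for HSP70, read 4.38, 4.57 and 3.61 in parental cells, 5.02, 5.07 and 5.14 in Colony cells and 5.02, 4.85 and 4.89 in SN cells. The 6 transduced arrays lay between 4.85 and 5.14, and the spread was in the parental group, where replicate 3 lay 0.86 below the mean of the other parental arrays. The difference was 0.89 ± 0.26 in Colony cells (adjusted p = 0.0886) and 0.73 ± 0.27 in SN cells (adjusted p = 0.194). Without parental replicate 3 the differences were smaller, at 0.60 (adjusted p = 0.0345) and 0.45 (adjusted p = 0.150). The second HSPH1 probe had differences of 0.90 (adjusted p = 0.113) and 0.95 (adjusted p = 0.157), with parental replicate 3 lower by 1.01.

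HSP90AA1, the inducible cytosolic HSP90, was measured by 3 probes. The brightest read 8.00, 7.93 and 7.23 in parental cells, 8.51, 8.71 and 8.68 in Colony cells and 8.70, 8.61 and 8.59 in SN cells. Parental replicate 3 lay below the other parental arrays again, by 0.73, and no parental array reached the lowest transduced array. The difference was 0.91 ± 0.23 in both comparisons, with adjusted p-values of 0.0644 in Colony cells and 0.104 in SN cells. The probe printed 10 times on the array differed by 1.05 and 0.98 (adjusted p = 0.0658 and 0.116), with an SD between its spots of only 0.04 to 0.05. The third differed by 1.11 and 1.09 (adjusted p = 0.0695 and 0.115). The folds of the 3 probes ran from 1.88 to 2.15 over both comparisons, and none was called.

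Parental replicate 3, the 1 parental array at P99, stood apart in HSP90AA1, HSPH1 and HSPB1. Without it the difference of HSP90AA1 fell to 0.67 while its adjusted p became 0.0316, and 7 members passed the adjusted p (BAG3, DNAJB1, HSP90AA1, HSPA1A, HSPA1B, HSPA8 and HSPH1), of which HSPA1A and HSPA8 were called. In that fit 9.88% of named genes passed the adjusted p upward and 2.20% were called upward. In SN cells no member passed without it. Over all probes, 12.6% to 16.7% lay further from the other parental arrays in replicate 3 than the brightest probes of HSPH1 and HSP90AA1 did, and 19.7% than that of HSPB1. Parental replicate 1 lay 0.51 below the other parental arrays in HSPB1, with 19.9% of probes further away.

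HSPB1, the small heat shock protein HSP27 that keeps unfolding proteins soluble, did not follow the others. Its brightest probe read 7.11, 7.35 and 7.89 in parental cells, 7.11, 7.29 and 7.22 in Colony cells and 7.27, 7.48 and 7.11 in SN cells. The groups overlapped, and parental replicate 3 lay 0.66 above the other parental arrays. The differences were -0.24 ± 0.22 in Colony cells (95% interval -0.78 to 0.29, adjusted p = 0.479) and -0.17 ± 0.24 in SN cells (-0.75 to 0.41, adjusted p = 0.700). Without parental replicate 3 the differences were -0.025 in Colony and 0.051 in SN cells, and without parental replicate 1 they were -0.42 and -0.34. The second probe read between 6.52 and 7.33 on all arrays, with differences of -0.26 and -0.11. The third and dimmest read 1.94, 1.92 and 2.35 in parental cells and 1.64, 1.70 and 1.70 in Colony cells, which did not overlap, but the difference of -0.39 did not pass (adjusted p = 0.145).

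HSPD1 and HSPE1 form the mitochondrial pair. HSPD1, the HSP60 barrel, read 8.43, 8.26 and 8.16 in parental cells, 8.58, 8.75 and 8.73 in Colony cells and 8.74, 8.84 and 8.52 in SN cells. HSPE1, the HSP10 lid of that barrel, read 7.91, 7.75 and 7.56, then 8.00, 8.16 and 8.14, then 8.20, 8.22 and 8.07 in the same order of groups. The groups did not overlap in either gene, and the gap between the highest parental and the lowest transduced array was 0.09 to 0.16. The differences were 0.40 ± 0.12 for HSPD1 and 0.36 ± 0.13 for HSPE1 in Colony cells (adjusted p = 0.0869 and 0.130), and 0.42 ± 0.15 and 0.43 ± 0.15 in SN cells (adjusted p = 0.191 and 0.172).

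**Figure D3:**
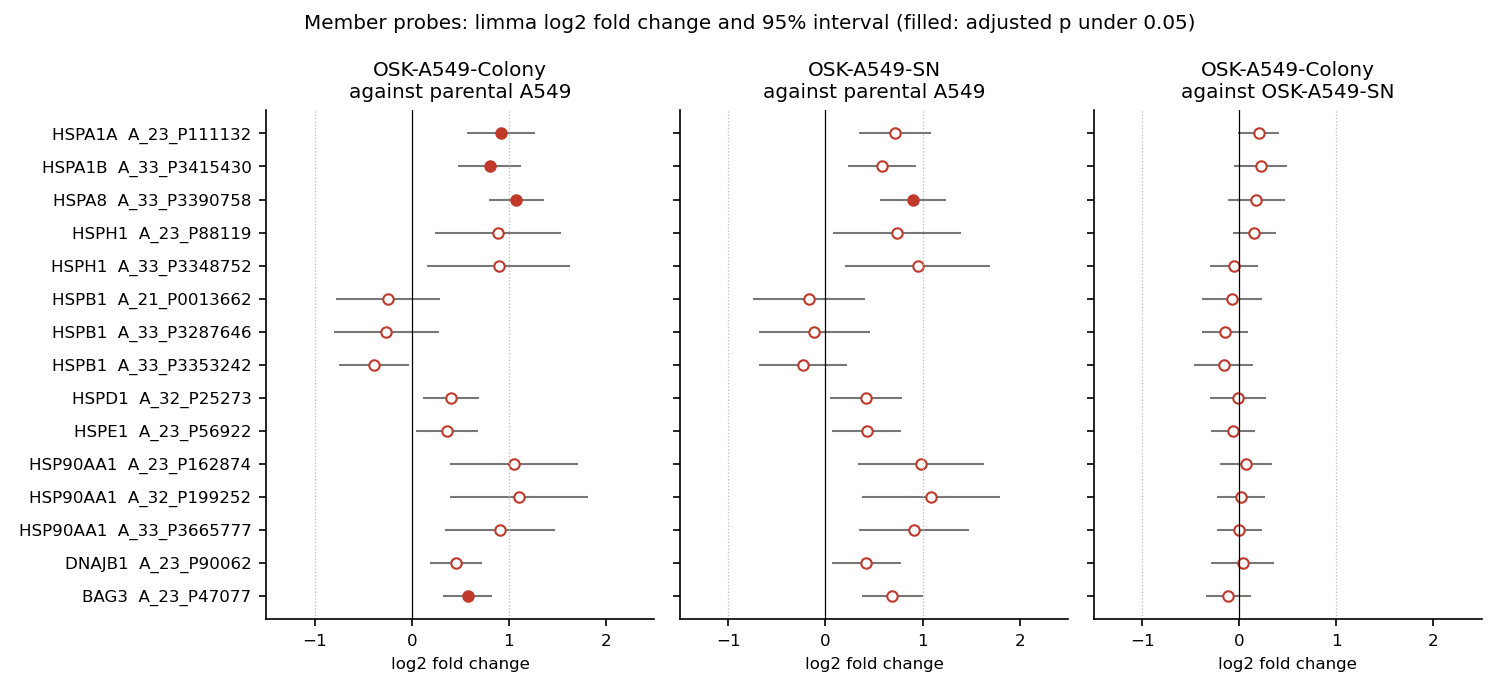
Log2 fold changes of the 15 member probes with 95% intervals from limma in the 3 comparisons; filled points have an adjusted p under 0.05 and dotted lines mark a 2-fold change. Filled points are HSPA1A, HSPA1B, HSPA8 and BAG3 in Colony cells and HSPA8 in SN cells, and all points of the right panel lie between -0.16 and 0.22.

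Whether the colonies and the spindle-shaped cells around them differed in these genes was tested on their own 6 arrays. No member was called by limma between colonies and spindle-shaped cells, none passed the adjusted p, and 0 had an unadjusted p under 0.05. Over the whole array 0% of probes and genes were called, although 6181 of 31748 probes had an unadjusted p under 0.05. The differences of the members ran from -0.11 for BAG3 to 0.22 for HSPA1B (95% interval -0.06 to 0.50). HSPA1A was 0.20 higher in Colony cells (-0.01 to 0.41, adjusted p = 0.268), and it was the 1 member without overlap, beside 16.3% of all named genes. The interval was -0.12 to 0.47 for HSPA8 and -0.23 to 0.23 for HSP90AA1. A difference of 2-fold lay outside the interval of all 10 members. The counts without overlap depended on the processing: 3 members were higher in Colony cells without overlap after normexp background correction and 4 after quantile normalization.

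Across all 3 groups at once, limma's F test was passed by 5 members, against 12.7% of all named genes. They were HSPA8 (adjusted p = 0.00750), HSPA1A (0.0131), BAG3 (0.0149), HSPA1B (0.0187) and HSP90AA1 (0.0348). HSPA8 and HSPA1A passed it in all 16 alternatives run, BAG3 in 14, HSPA1B in 12 and HSP90AA1 in 5. BAG3, HSPA1B and HSP90AA1 did not pass with the replicate block or without parental replicate 2. HSPA1B did not pass either without Colony replicate 2 or Colony replicate 3, nor HSP90AA1 without any 1 of the transduced arrays, after quantile normalization, with no detection filter or with slide as a block. The brightest probes of HSPH1, DNAJB1, HSPE1, HSPD1 and HSPB1 did not pass (0.0696 to 0.627). Within the groups, the median SD of the member probes was 0.24 in the parental group, 0.09 in Colony cells and 0.11 in SN cells, and that of all probes was 0.25, 0.13 and 0.20.

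Other genes of the chaperone network were examined in 9 lists of 90 genes in all, of which 85 could be tested. In Colony cells 61 were higher and 24 lower than in parental cells, with a median difference of 0.24, and 8 passed the adjusted p upward and 2 downward. Over all named genes 5.29% passed it upward, and the downward share was not counted. In SN cells 68 were higher and 17 lower, with a median of 0.27, and 1 passed upward, beside 0.888% of named genes. Between Colony and SN cells 38 were higher and 47 lower, with a median of -0.02, and none passed. Upward calls in Colony against parental cells numbered 3 in these lists, beside 2.08% of named genes. Called genes in Colony cells were DNAJA1, a cytosolic J-domain protein (1.00 ± 0.14, adjusted p = 0.0241), SQSTM1, the autophagy receptor p62 (1.28 ± 0.17, adjusted p = 0.0221), and RGS2, a regulator of G-protein signalling that heat also induces (1.12 ± 0.16, adjusted p = 0.0250). RGS2 was the 1 called gene of these lists in SN cells (1.27 ± 0.19, adjusted p = 0.0449), where 1.55% of all probes and 0.757% of named genes in the upward direction were called. Without Colony replicate 2 no probe of the whole array was called in Colony cells, and without SN replicate 1 or SN replicate 2 none was in SN cells, so the calls of these lists were lost there as well. Without parental replicate 2, 1 probe of the array was called in Colony cells and 2 probes were in SN cells.

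HSP90 and its co-chaperones, the helpers that load clients onto HSP90 and set its ATPase, were higher for 12 of 14 genes in each comparison with parental cells, with medians of 0.35 in Colony and 0.41 in SN cells. In Colony cells AHSA1, the activator of that ATPase (0.45), and PTGES3, the co-chaperone p23 (0.56), passed the adjusted p. The largest difference of the list was that of CHORDC1 in Colony cells (1.26 ± 0.38, adjusted p = 0.0913) and that of PPID, a cyclophilin that binds HSP90, in SN cells (1.04 ± 0.27, adjusted p = 0.107). Among the nucleotide exchange factors BAG2 passed in Colony cells (0.94, adjusted p = 0.0396). Among the subunits of the TRiC chaperonin, which folds actin and tubulin, CCT2 passed (0.59), and 10 of 14 genes of TRiC and prefoldin were higher. Of the 10 other mitochondrial chaperones and proteases, DNAJA3 passed upward (0.65) and CLPB downward (-0.54). Among J-domain proteins DNAJB5 was the 1 gene past the adjusted p downward (-0.84). AHSA1, PTGES3, CLPB and DNAJB5 were singled out after their values were seen.

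The other HSP70 and HSP110 genes did not pass in any comparison. HSPA2, a testis-enriched HSP70, had the largest difference in Colony cells, at -1.07 (adjusted p = 0.0681). The 6 small heat shock proteins that could be tested had a median of -0.04 in Colony cells and 0.23 in SN cells, and none passed. The list of heat shock transcription factors also holds HSBP1, which is not itself such a factor. None of the 4 tested genes of this list passed. HSF4 had the largest difference against parental cells (-0.17 in Colony and -0.27 in SN cells). HSF1, named here for its role, differed by -0.02 in Colony cells and by -0.12 in SN cells. HSF1 is activated by trimerisation and phosphorylation, which an array does not read.

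**Figure D4:**
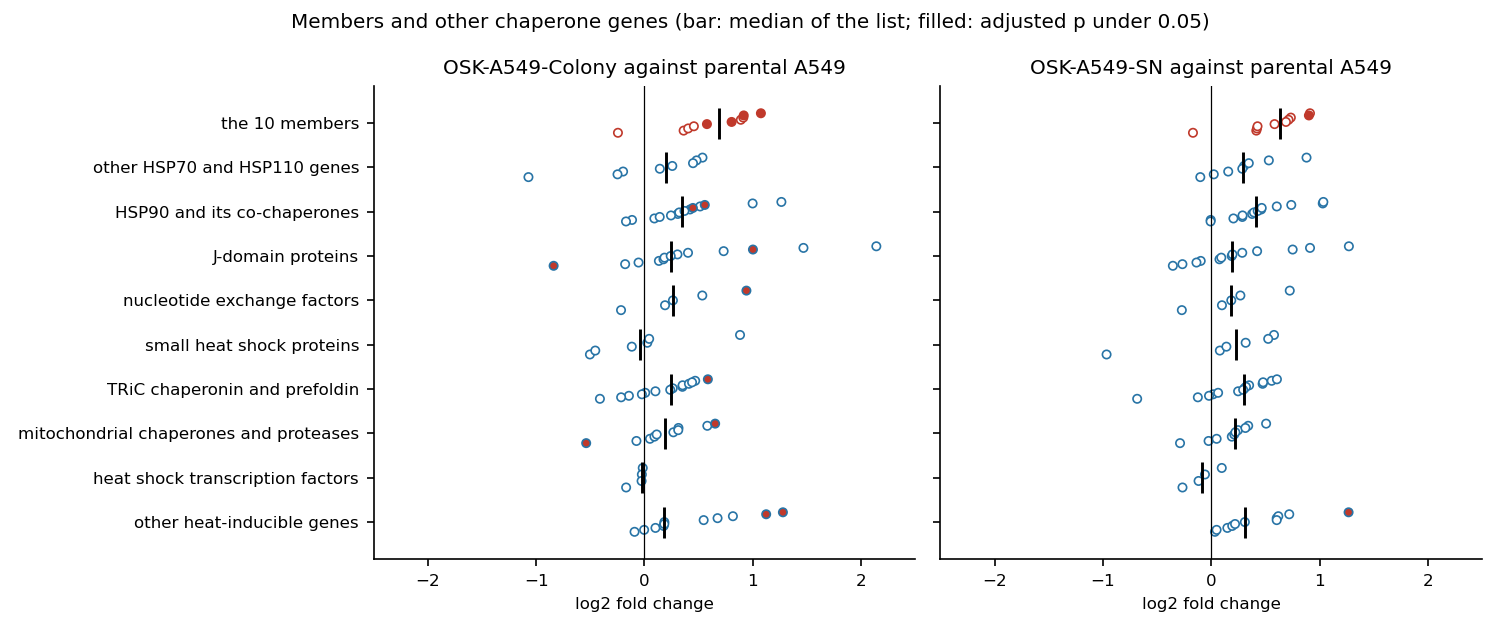
Log2 fold changes of the members (red outline) and of 9 lists of other chaperone genes (blue outline) against parental A549, with a bar at the median of each list and filled points where the adjusted p was under 0.05. The medians of the members are 0.69 and 0.64, and those of the other lists lie between -0.09 and 0.41.

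Immediate early genes, which answer serum, stress and the handling of cells, were examined beside the members. Of the 14 tested in Colony cells, 9 were higher and 5 lower, and FOSL1 (2.14), JUN (1.68) and EGR1 (1.28) were called, while MYC (0.59), named after its values were seen, passed the adjusted p. Over all named genes 2.08% were called upward and 5.29% passed the adjusted p upward. The mean log2 value of the list ran from -0.05 to 0.25 in parental cells, 0.31 to 0.59 in Colony cells and -0.06 to 0.26 in SN cells, so that the Colony arrays lay above the parental arrays and the SN arrays overlapped with them. In SN cells 7 were higher and 7 lower, and FOSL1 was called (1.05), beside 0.757% of named genes called upward.

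The marker lists were set beside the members in the same way. The mean log2 value of the 7 epithelial markers ran from 5.02 to 5.23 in parental cells, 4.93 to 5.03 in Colony cells and 4.84 to 5.00 in SN cells, which lay below the parental arrays without overlap. In Colony cells 2 of them were higher and 5 lower. KRT19, a keratin, had the largest difference (1.18, adjusted p = 0.0625), and CDH1, which encodes E-cadherin and was named after its values were seen, fell by 1.00 (adjusted p = 0.0319). In SN cells the difference of CDH1 was -0.83 (adjusted p = 0.0860). The mean of the 7 mesenchymal markers ran from -0.96 to -0.64 in parental cells, -0.39 to -0.27 in Colony cells and -0.81 to -0.39 in SN cells, so that it was higher in Colony than in parental cells without overlap. Of these 7, 5 were well above background on all 9 arrays, SNAI2 was on 3 and ZEB2 on none. The mean thus includes values near the floor. Of the 6 tested, 4 were higher and 2 lower in each comparison with parental cells, with medians of 0.57 in Colony and 0.42 in SN cells, and none passed the adjusted p. The largest difference was that of ZEB1, a repressor of CDH1, in Colony cells (1.09, adjusted p = 0.100) and that of FN1, which encodes fibronectin, in SN cells (-1.33, adjusted p = 0.0701). The mean of the 5 leukocyte markers ran from -2.68 to -2.02, -2.75 to -2.48 and -2.52 to -1.83, and CD68, a lysosomal gene that macrophages express, was called in Colony cells (1.04), while the other 3 tested there were lower and did not pass, and the median of the 4 was -0.66. The mean of the 5 endothelial markers ran from -5.14 to -4.97, -5.45 to -5.14 and -4.89 to -4.71, without overlap between parental and SN cells, and that of the 6 fibroblast markers from -6.23 to -5.68, -5.98 to -5.80 and -5.92 to -5.65. Both means lie near the floor. Among the endothelial markers KDR was well above background on 1 array, an SN array, and PECAM1 and TEK on none. The part of any of these in the differences of the heat shock genes was not tested.

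The genes whose pattern over the 9 arrays was most like that of HSPA1A, among 18632 named probes well above background on all arrays, were PLAU (Pearson r = 0.993), IL15RA (0.988), TWIST2 (0.987), PEA15 (0.986) and ZNF462 (0.982). HSPA1B, left out of the ranking as a near-identical copy, had r = 0.979. Of the other members, HSPA8 came at rank 35 (0.961), DNAJB1 at 347 (0.902) and BAG3 at 706 (0.864). The probes of HSP90AA1, HSPD1, HSPH1 and HSPE1 came at ranks 1931 to 3098 (0.69 to 0.77), while the 3 probes of HSPB1 had r from -0.60 to -0.20. The 9 arrays form 3 groups, and every coefficient here holds the differences between the groups as well as the spread within them.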

How the data were processed

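Total RNA was hybridised to single-colour (Cy3) Agilent SurePrint G3 human arrays with 62976 spots. The authors deposited the scanner output, in which Agilent Feature Extraction 11.5.1.1 had already subtracted the background from the intensity of each spot without scaling between arrays. A second table that the authors deposited holds log2 values, which are the same intensities shifted by 1 constant per array (100% of probes within 0.001). That table and the other settings below served as alternatives. The study's own analysis used GeneSpring GX.

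From the deposited intensity, the 4259 control spots and 357 to 484 spots with an outlier flag per array were left out. The rest were put on the log2 scale, the mean over the spots of each probe was taken, and every array was set to 0 at its 75th percentile. Detection required that a share of 0.5 or more of the spots of a probe be positive, significant and well above background. Genes were named through the RefSeq transcripts given for 32065 probes, of which 30275 matched 1 gene of the RefSeq table. Groups were compared in R 4.3.3 with limma 3.58.1 (lmFit and eBayes), each pair on its own 6 arrays, over probes detected on at least 1 of them, with Benjamini-Hochberg adjustment over all of these. A gene was represented by its tested probe with the highest mean. The F test used all 9 arrays. The number of arrays limits the precision. The calls were tested on simulated data.

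The members and the gene lists were chosen with earlier results of these data known. Every probe of the members is described. From the other lists, the genes named are those called and otherwise the one with the largest change, unless the text says that a gene was chosen after its values were seen. Lists were described by counts and medians, and the immediate early and marker lists also by their mean log2 value per array. No list was tested as a whole. Alternatives were normexp background correction (offset 50, on median brightness), quantile normalization, no detection filter, a filter for probes detected on all arrays of a group, all 9 arrays in 1 fit, the replicate number or the slide as a block, the deposited table and leaving out each array. Slide as a block was not run for Colony against parental cells, which shared 1 slide. Counts of members past the adjusted p alone and of members without overlap were added after seeing the data. Probe sequences and protein sequences are not used here. Promoter coordinates are those of the RefSeq table on GRCh38.p14, while the array annotation uses hg19, so no probe coordinates are given.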

Additional observations from a re-analysis of the deposited data

How the results depend on the processing

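The direction of the 9 members that were higher in Colony and SN cells than in parental cells held in every alternative run, whereas the number past the threshold did not. The count of 9 without overlap held after normexp and quantile normalization and in the deposited table. It also held when each array was left out, but leaving out an array cannot create an overlap. The other alternatives use the values as reported. In the rest of this paragraph counts are given for Colony against parental cells, then SN against parental cells. Members past the adjusted p, 4 and 1 as reported, numbered 8 and 5 after normexp background correction, 1 and 0 with no detection filter, 7 and 4 with the stricter filter, and 7 and 5 with all 9 arrays in 1 fit. Called probes, 1143 and 498 as reported, numbered 333 and 232 after normexp, 583 and 215 with no filter, 980 for SN cells with the stricter filter and 1085 for SN cells in 1 fit. With slide as a block SN cells had 187 called probes and 0 members past the adjusted p, a fit that uses only the SN arrays of the first slide. Leaving out each array in turn gave 0 to 1362 called probes, 0 to 2 called members and 0 to 7 past the adjusted p in Colony cells, and 0 to 190 called probes and 0 members past the adjusted p in SN cells. Leaving out an array also leaves fewer degrees of freedom, and the cause of the changes was not tested in any alternative.

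The labels do not say what the replicate numbers share, and they were not taken as pairs, since the arrays of 1 number did not all deviate together. Deviations from the group means correlated between arrays of the same number at 0.24, 0.073 and 0.14 for Colony and SN cells, at -0.0070, -0.053 and -0.016 for Colony and parental cells and at 0.15, -0.20 and -0.0096 for SN and parental cells, although each Colony array correlated best with the SN array of its own number. With the replicate block, 0 probes and 0 members were called in either comparison with parental cells, 0 members passed the adjusted p, and 2 members passed the F test. Between Colony and SN cells, which may share transductions by number, 0 members passed with the replicate block, and HSPA1A had an adjusted p of 0.352.

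The F test was passed by 9 members after normexp, 7 with the stricter filter, 4 after quantile normalization, with no filter or with slide as a block, and by 2 to 6 when 1 array was left out, against 5 as reported. Between Colony and SN cells, 0 probes were called as reported, 32 after normexp, 139 with the stricter filter and 9 in 1 fit, and 0 members were called in any alternative run. Members higher in Colony cells without overlap numbered 3 after normexp, 4 after quantile normalization and 1 to 4 when 1 array was left out. The sign of differences near 0 changed there. HSPD1 was 0.019 after normexp, 0.064 after quantile normalization and -0.10 to 0.057 when 1 array was left out. HSPE1 and HSPB1 were 0.022 and 0.037 after quantile normalization, and HSP90AA1 was -0.021 with slide as a block. When 1 array was left out, HSP90AA1 ran from -0.038 to 0.064, HSPB1 from -0.17 to 0.021 and DNAJB1 from -0.042 to 0.14. HSPB1 in SN against parental cells ran from -0.34 to 0.051 when 1 array was left out. No array was saturated in a member probe, and all member probes were well above background. Whether the brightest probes answer in proportion to RNA was not tested, and HSPD1 read an intensity of 98853.6 to 99536.8 on the SN arrays.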
